A study of Mus musculus with 5 samples.

Results

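The TNF, TRAIL and NF-kB feedback genes are 10 genes chosen by name. They hold the ligands Tnf, Tnfsf10 and Tnfsf13b, and the TNF receptors Tnfrsf1a and Tnfrsf1b. The rest are the feedback genes Nfkbia, Tnfaip3 and Birc3, labelled feedback inhibitors in the figures, and the NF-kB subunits Nfkb2 and Relb. All 10 were found by symbol in the array's annotation, with 1 probe set each, among 19505 named genes. They were followed in whole subcutaneous melanomas grown in wild-type C57BL/6 mice aged 10 weeks from injected B16.F10 cells, an established murine melanoma line made to express luciferase and GFP. In the RG7112 group, 3 mice received anti-PD-1 and, by mouth, RG7112, a small molecule that keeps MDM2 from binding p53. In the vehicle group, 2 mice received anti-PD-1 and, by mouth, corn oil with 5% DMSO. Anti-PD-1, an antibody against an inhibitory receptor of T cells, was given to both groups on days 1, 4 and 8, the oral agent every 2 days for 6 days, and tumours were taken on day 13. Each tumour came from its own mouse. No mouse without anti-PD-1 was analysed here, so the comparison is of RG7112 added to anti-PD-1.

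Tumour necrosis factor binds 2 receptors, which recruit adaptor proteins and ubiquitin ligases. When survival signals fail, the receptor encoded by Tnfrsf1a, which has a death domain, can switch on cell death. Both receptors can switch on the transcription factor NF-kB. NF-kB then induces its own inhibitors, among them the genes Nfkbia and Tnfaip3, so that signalling is damped after a pulse. A slower, non-canonical route processes the product of Nfkb2 and releases dimers with RELB. In tumours these genes are used by myeloid cells, lymphocytes, vessels and the tumour cells themselves. In whole-tumour RNA, a change in the number of cells that express a gene and a change in RNA per cell cannot be told apart.

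Of the 10 genes, 3 rose in RG7112 tumours and 0 fell: Tnf, Tnfsf10 and Birc3. The other 7 did not pass the test, with differences from -0.37 to 0.45 on the log2 scale. A gene passed at an adjusted p under 0.05 in limma, a linear model that shares variance information across probe sets, with Benjamini-Hochberg adjustment over all 22203 probe sets. Of all probe sets, 1.42% were called higher and 0.0315% lower. The median difference over the 10 genes was 0.38, beside -0.03 over all probe sets. The genes were picked with earlier results of these data known, so neither the count nor the median speaks for the list as a whole.

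The 250 bases before the annotated start of 6 of these genes are shown, because they set the 3 genes that rose (Tnf, Tnfsf10 and Birc3) beside the 3 genes in which a sequence search found the NF-kB consensus (Nfkbia, Tnfaip3 and Nfkb2). The sequences are RefSeq's, of mouse build GRCm38.p6, written in the direction of transcription. The windows are chr17:35202008-35202257 on the minus strand, chr3:27316827-27317076 on the plus strand, chr9:7873171-7873420 on the minus strand, chr12:55492648-55492897 on the minus strand, chr10:19015411-19015660 on the minus strand and chr19:46304487-46304736 on the plus strand. For Tnfaip3 and Nfkb2, which have 2 and 3 annotated starts, the window of the most upstream start is printed. Capitals mark the bases that match the NF-kB consensus.
Tnf: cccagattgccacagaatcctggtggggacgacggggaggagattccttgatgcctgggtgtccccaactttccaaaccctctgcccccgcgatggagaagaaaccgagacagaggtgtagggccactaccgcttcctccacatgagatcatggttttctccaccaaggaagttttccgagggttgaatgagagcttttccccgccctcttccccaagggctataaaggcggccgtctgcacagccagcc
Tnfsf10: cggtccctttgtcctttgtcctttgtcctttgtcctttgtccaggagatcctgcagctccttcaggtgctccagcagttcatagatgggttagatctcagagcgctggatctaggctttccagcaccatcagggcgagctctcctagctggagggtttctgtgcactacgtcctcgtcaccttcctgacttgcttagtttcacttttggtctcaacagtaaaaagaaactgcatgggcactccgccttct
Birc3: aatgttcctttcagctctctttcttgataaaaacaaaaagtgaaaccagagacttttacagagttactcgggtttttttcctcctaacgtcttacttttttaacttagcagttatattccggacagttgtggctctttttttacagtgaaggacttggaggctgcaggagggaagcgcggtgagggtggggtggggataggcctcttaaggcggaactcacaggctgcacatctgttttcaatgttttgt
Nfkbia: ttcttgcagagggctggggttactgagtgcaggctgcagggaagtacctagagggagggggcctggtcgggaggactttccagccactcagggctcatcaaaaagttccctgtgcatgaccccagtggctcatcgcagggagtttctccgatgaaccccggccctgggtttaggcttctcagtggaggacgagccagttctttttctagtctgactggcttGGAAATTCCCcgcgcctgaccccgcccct
Tnfaip3: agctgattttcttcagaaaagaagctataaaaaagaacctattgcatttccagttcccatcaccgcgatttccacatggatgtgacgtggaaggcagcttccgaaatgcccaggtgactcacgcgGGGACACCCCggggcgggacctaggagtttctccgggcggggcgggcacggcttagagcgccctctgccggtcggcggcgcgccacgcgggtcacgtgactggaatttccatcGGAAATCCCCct
Nfkb2: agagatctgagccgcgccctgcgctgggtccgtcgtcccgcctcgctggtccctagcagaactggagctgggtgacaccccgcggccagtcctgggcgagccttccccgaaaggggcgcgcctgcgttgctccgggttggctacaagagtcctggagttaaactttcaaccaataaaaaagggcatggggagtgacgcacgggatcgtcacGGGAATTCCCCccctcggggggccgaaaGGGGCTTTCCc

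The consensus was searched on both strands, and overlapping matches were merged into 1 stretch. In Nfkbia the match lay at -29 to -20 from the start. In Tnfaip3 the matches lay at -125 to -116 and at -12 to -3, and in Nfkb2 at -39 to -29 and at -11 to -2. Of 32817 such windows of annotated mouse starts, 3.9% held the consensus. Of the 13 windows of the 9 members with any, 5 held it: 1 of Nfkbia, 1 of Tnfaip3 and all 3 of Nfkb2, whose other windows matched at -236 to -227 and at -225 to -216. None of the windows of the 3 genes that rose held it, which says only that these letters are absent from these 250 bases. Relb had no window here. The core of the interferon-stimulated response element was matched on either strand in 2 members. Of the 13 windows, it lay in 1 each of Tnfrsf1b and Tnfsf13b (the downstream start), beside 2.97% of all windows. The core of the gamma-activated site was matched in 3 members. Of the 13 windows, it lay in 1 each of Tnfrsf1a, Tnfrsf1b and Nfkb2, beside 7.01% of all windows. A match is a description of letters and not a bound site.

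Tnf, the founding cytokine of the family, had the smallest p of the 10 genes. The log2 signal of Tnf was 5.48, 5.76 and 5.45 in RG7112 tumours 1, 2 and 3, against 4.22 and 4.04 in vehicle tumours 3 and 4. All 3 RG7112 tumours lay more than 1 log2 unit above both vehicle tumours, and the groups did not overlap. The means were 5.56 ± 0.17 (SD, n = 3) with RG7112 and 4.13 ± 0.12 (SD, n = 2) with vehicle. The difference was 1.43 ± 0.17 (SE), or 2.70-fold, with a 95% interval of 1.06 to 1.80 and a limma adjusted p of 0.00126. Tnf was dim, with its vehicle mean at the 25.0th percentile of all probe sets and its RG7112 mean at the 47.4th. Without vehicle replicate 4 the difference was 1.34 and the call was lost (adjusted p = 0.0599).

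Tnfsf10 encodes TRAIL, a ligand that can trigger death of cells through its receptor and is known as an interferon-inducible gene. In RG7112 tumours 1, 2 and 3 its log2 signal was 6.08, 5.34 and 5.79, against 4.75 and 4.11 in vehicle tumours 3 and 4. Every RG7112 tumour again lay above both vehicle tumours, but both groups spread more widely than for Tnf. The means were 5.74 ± 0.37 (SD, n = 3) with RG7112 and 4.43 ± 0.45 (SD, n = 2) with vehicle. The difference was 1.31 ± 0.24 (SE), or 2.48-fold, with a 95% interval of 0.78 to 1.84 and a limma adjusted p of 0.0204. Tnfsf10 was dim as well, with its vehicle mean at the 30.7th percentile of all probe sets and its RG7112 mean at the 49.5th. The highest RG7112 tumour for Tnfsf10 was replicate 1, whereas for Tnf it was replicate 2. The call of Tnfsf10 was lost without RG7112 replicate 1 (1.14, adjusted p = 0.0509), without RG7112 replicate 3 (1.29, adjusted p = 0.102) and without vehicle replicate 4 (0.99, adjusted p = 0.363).

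Tnfsf13b encodes BAFF, a survival factor of B cells, and it ran the other way from the other ligands. Its log2 signal was 4.33, 4.58 and 4.34 in RG7112 tumours 1, 2 and 3, against 4.77 and 4.80 in vehicle tumours 3 and 4. The RG7112 tumours all lay below the vehicle tumours, by a margin that is small against the test over all genes. The difference was -0.37 ± 0.16 (SE), with a 95% interval of -0.72 to -0.02, and did not pass (limma adjusted p = 0.517, unadjusted p = 0.0398). Groups separated in this direction in 14% of all probe sets. The signal of Tnfsf13b was near the 33.6th percentile, and the gene is left out where probe sets below the 40th percentile are dropped. Markers of the B cells on which BAFF acts were at 4.11 ± 0.35 (SD, n = 3) with RG7112 and 4.27 ± 0.04 (SD, n = 2) with vehicle as a mean log2 signal of 4 genes, with overlapping groups. These markers were dim as well, between the 19.7th and 31.7th percentiles, and are left out by the same filter. The part of B cells in the result was not tested.

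**Figure D1:**
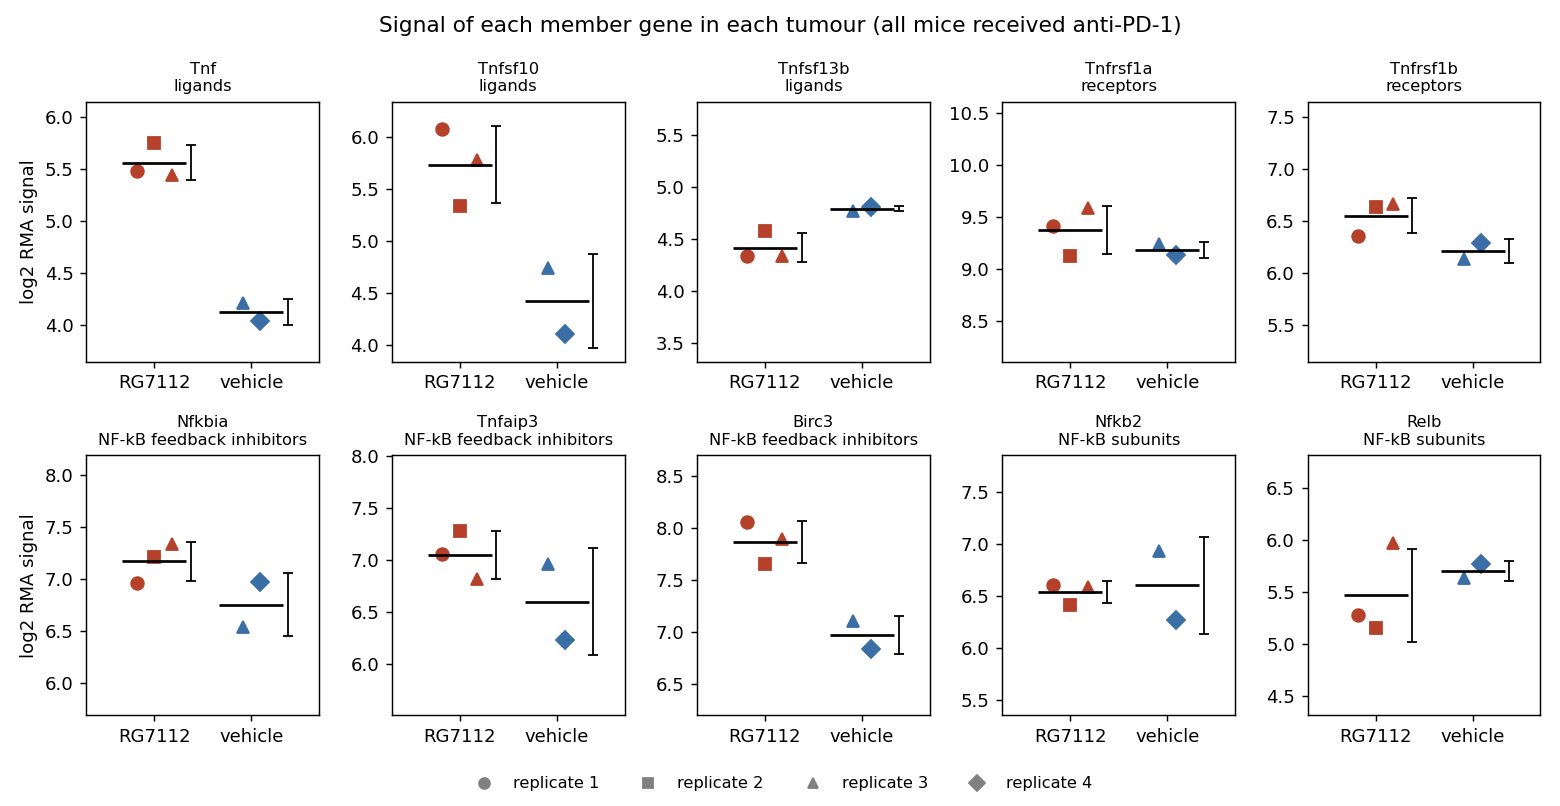
Log2 signal (vertical axis, each panel 2.5 log2 units high) of the 10 genes in each RG7112 and vehicle tumour, with 1 point per tumour, a line at the group mean and a bar for the SD beside it. Tnf, Tnfsf10 and Birc3 show separated groups with gaps of more than 0.5, while the points of Tnfrsf1a, Nfkbia, Tnfaip3, Nfkb2 and Relb overlap.

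The receptors did not pass. Tnfrsf1a encodes the widely expressed death-domain receptor of TNF. The log2 signal of Tnfrsf1a was 9.41, 9.13 and 9.59 in RG7112 tumours 1, 2 and 3, against 9.24 and 9.13 in vehicle tumours 3 and 4. RG7112 replicate 2 was level with vehicle replicate 4 and below vehicle replicate 3, and the groups overlapped. The difference was 0.19 ± 0.18 (SE), with a 95% interval of -0.20 to 0.58 (limma adjusted p = 0.851). For this bright gene, near the 91.8th percentile of signal, a rise as large as that of Tnf lay outside the interval.

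Tnfrsf1b encodes the second TNF receptor, which lacks a death domain and is found mostly on leukocytes and endothelium. Its log2 signal was 6.35, 6.63 and 6.66 in RG7112 tumours 1, 2 and 3, against 6.13 and 6.29 in vehicle tumours 3 and 4. The groups did not overlap, but RG7112 replicate 1 was within 0.1 of vehicle replicate 4. The difference was 0.34 ± 0.17 (SE), with a 95% interval of -0.03 to 0.71 (limma adjusted p = 0.616). Over all 10 genes, 4 had every RG7112 tumour above every vehicle tumour (Tnf, Tnfsf10, Tnfrsf1b and Birc3), which 10.8% of all probe sets had too. Whether ligands and receptors differed in their response was not tested.

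Among the feedback genes, the NF-kB inhibitors Nfkbia and Tnfaip3 did not pass, and Birc3 rose. It encodes a ubiquitin ligase of the inhibitor of apoptosis family that acts at the TNF receptor complex, favours canonical NF-kB signalling and cell survival, and is itself an NF-kB target. Its log2 signal was 8.06, 7.65 and 7.90 in RG7112 tumours 1, 2 and 3, against 7.10 and 6.84 in vehicle tumours 3 and 4. All RG7112 tumours lay above both vehicle tumours, in the same order of replicates as for Tnfsf10. The means were 7.87 ± 0.20 (SD, n = 3) with RG7112 and 6.97 ± 0.18 (SD, n = 2) with vehicle. The difference was 0.90 ± 0.18 (SE), or 1.86-fold, with a 95% interval of 0.51 to 1.29 and a limma adjusted p of 0.0300. Its call was lost without RG7112 replicate 1 (0.81, adjusted p = 0.0822), RG7112 replicate 3 (0.88, adjusted p = 0.103), vehicle replicate 3 (1.03, adjusted p = 0.148) or vehicle replicate 4 (0.77, adjusted p = 0.404).

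Nfkbia encodes the inhibitor that holds NF-kB dimers in the cytoplasm, and it is the textbook gene of NF-kB feedback. Signals of 6.96, 7.21 and 7.34 were measured in RG7112 tumours 1, 2 and 3 (log2), against 6.54 and 6.97 in vehicle tumours 3 and 4. RG7112 replicate 1 fell just below vehicle replicate 4, so the groups overlapped. The difference was 0.41 ± 0.19 (SE), with a 95% interval of 0.00 to 0.83, and did not pass (limma adjusted p = 0.561, unadjusted p = 0.0495).

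Tnfaip3 encodes a ubiquitin-editing enzyme that ends TNF receptor signalling. Its log2 signal was 7.06, 7.28 and 6.81 in RG7112 tumours 1, 2 and 3, against 6.96 and 6.23 in vehicle tumours 3 and 4. The vehicle tumours lay further apart than the group means, and vehicle replicate 3 was above RG7112 replicate 3. The difference was 0.45 ± 0.23 (SE), with a 95% interval of -0.04 to 0.95 (limma adjusted p = 0.622). It was 0.82 without vehicle replicate 3 and 0.09 without vehicle replicate 4, so the choice of vehicle tumour set its size.

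Neither NF-kB subunit passed. Nfkb2, whose product is processed in the non-canonical route, had a log2 signal of 6.61, 6.42 and 6.59 in RG7112 tumours 1, 2 and 3, against 6.94 and 6.27 in vehicle tumours 3 and 4. The RG7112 tumours lay between the vehicle tumours. The difference was -0.06 ± 0.20 (SE), with a 95% interval of -0.51 to 0.38 (limma adjusted p = 0.968), and it was 0.27 without vehicle replicate 3 and -0.40 without vehicle replicate 4.

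Relb, the partner of the processed Nfkb2 product, had a log2 signal of 5.28, 5.15 and 5.98 in RG7112 tumours 1, 2 and 3, against 5.63 and 5.77 in vehicle tumours 3 and 4. RG7112 replicate 3 was the highest of all tumours and the other RG7112 tumours the lowest. The difference was -0.23 ± 0.23 (SE), with a 95% interval of -0.74 to 0.27 (limma adjusted p = 0.862). For both subunits, a difference of 1 on the log2 scale lay outside the interval.

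**Figure D2:**
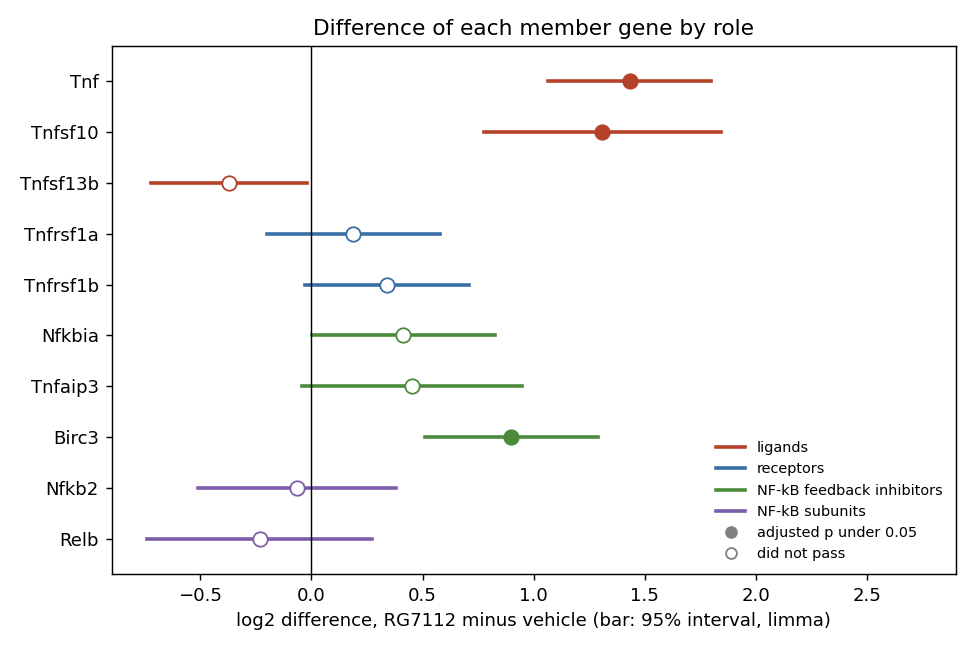
Log2 difference of RG7112 minus vehicle (horizontal axis) for each gene, with 95% intervals from limma. From the top the order is ligands, receptors, feedback genes (labelled feedback inhibitors) and subunits. Filled points mark Tnf, Tnfsf10 and Birc3, which passed at adjusted p under 0.05, and the intervals of Nfkb2 and Relb span 0.

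By role, the median difference was 1.31 for the 3 ligands and 0.26 for the 2 receptors. It was 0.45 for the 3 feedback genes and -0.15 for the 2 subunits. The number called was 2 ligands, 0 receptors, 1 feedback gene (Birc3) and 0 subunits. The 3 genes that rose had no common order of tumours. RG7112 replicate 2 was the highest tumour for Tnf and the lowest RG7112 tumour for Tnfsf10 and Birc3. Vehicle replicate 4 was the lowest tumour for all 3, and also for Tnfaip3 and Nfkb2.

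**Figure D3:**
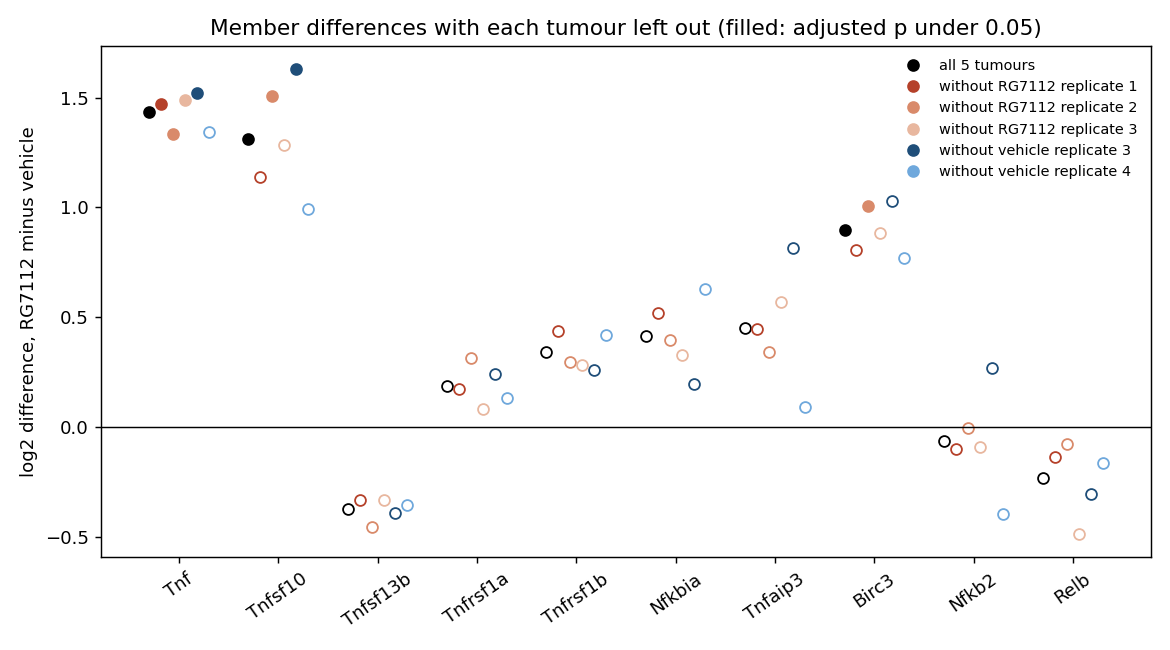
Log2 difference of RG7112 minus vehicle (vertical axis) for each gene with all 5 tumours and with each tumour left out in turn, where filled points passed at adjusted p under 0.05. Tnf stayed between 1.34 and 1.52 and was called in all but 1 of these fits, and Nfkb2 lay on either side of 0.

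Of 114 measured genes of the wider pathway that are not members, 5 were called higher and 0 lower. Over all probe sets, 1.42% were called higher and 0.0315% lower. The pathway lists were also chosen with earlier results of these data known, so this count does not speak for the pathway. Of 16 measured TNF family ligands 2 were called, both of them members, and the median difference was 0.11. Among the others, the death ligand Fasl differed by 0.53 ± 0.18 (SE; limma adjusted p = 0.329) and Tnfsf4, the ligand of a T cell costimulatory receptor, by 0.34 ± 0.18 (adjusted p = 0.660). Of 26 measured TNF family receptors 0 were called, with a median of 0.03. The smallest p-values there belonged to Cd40, a receptor of antigen-presenting cells (0.50 ± 0.17, adjusted p = 0.303), and Tnfrsf9, a costimulatory receptor of activated T cells (0.47 ± 0.21, adjusted p = 0.536).

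Of 22 measured genes of receptor-proximal signalling and cell death, Birc3 was the 1 called, and the median was 0.11. Rnf31, the catalytic subunit of the linear ubiquitin ligase at the TNF receptor, differed by 0.76 ± 0.18 (limma adjusted p = 0.0816), and Mlkl, the executioner of necroptosis, by 0.59 ± 0.17 (adjusted p = 0.204). Of 10 measured NF-kB subunits and upstream kinases 0 were called, with a median of 0.07. Tbk1, a kinase of innate sensing, differed by 0.44 ± 0.15 (adjusted p = 0.333) and Map3k8, a kinase downstream of TNF and Toll-like receptors, by 0.46 ± 0.18 (adjusted p = 0.465). Of 22 measured NF-kB inhibitors and feedback genes, Birc3 was again the 1 called, with a median of 0.16. Bcl3, a nuclear protein of the inhibitor family, had a difference of 0.93 ± 0.20 that missed the threshold (adjusted p = 0.0554), although it passed without RG7112 replicate 2 (1.11, adjusted p = 0.0213), with cyclic loess normalization (adjusted p = 0.0476) and with 1 probe set per gene (adjusted p = 0.0487), and Nfkbiz, of the same family, differed by 0.61 ± 0.15 (adjusted p = 0.115).

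Of 30 measured effector genes that NF-kB is known to induce, 5 rose, 0 fell and 25 did not pass, beside 1.42% of all probe sets called higher, and the median was 0.15. Ccl3, a chemokine of activated macrophages and lymphocytes, rose by 1.78 ± 0.25 (limma adjusted p = 0.00361). Vcam1, an adhesion molecule of activated endothelium, rose by 1.30 ± 0.17 (adjusted p = 0.00284). Irf1, a transcription factor induced by interferon gamma as well as by NF-kB, rose by 1.22 ± 0.20 (adjusted p = 0.00890), and the macrophage growth factor Csf1 by 0.91 ± 0.18 (adjusted p = 0.0295). The fifth was Nos2, the inducible nitric oxide synthase (0.80 ± 0.16, adjusted p = 0.0315), which was named after its values were seen. All 5 lost their calls when vehicle replicate 4 was left out (adjusted p between 0.0907 and 0.191), with differences of 1.36 for Ccl3, 1.14 for Vcam1, 0.93 for Irf1, 1.06 for Csf1 and 0.91 for Nos2. Csf1 and Nos2 lost their calls whichever of the 5 tumours was left out.

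**Figure D4:**
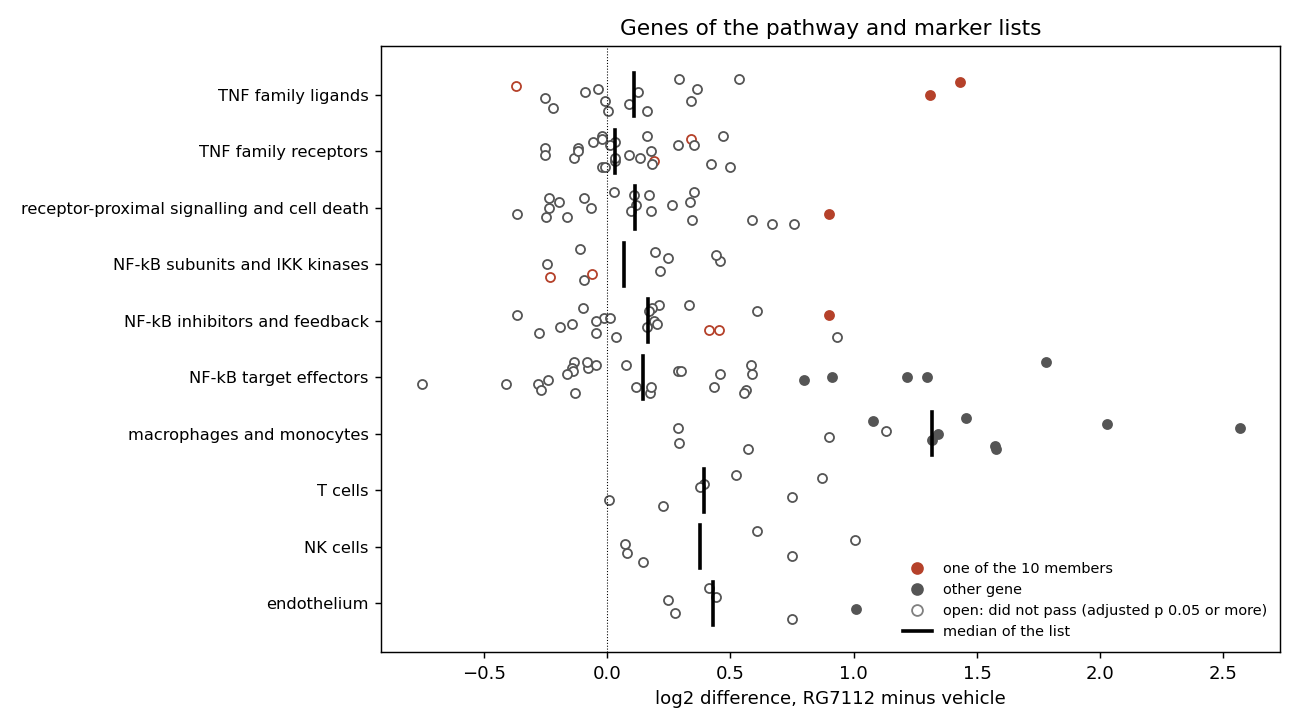
Log2 difference of RG7112 minus vehicle (horizontal axis) for the measured genes of 6 pathway lists and 4 lists of cell markers, with 1 point per gene and a line at each list's median. Medians of the pathway lists lie between 0.03 and 0.16, with Tnf and Tnfsf10 standing to the right of the other ligands, and that of macrophage and monocyte markers lies at 1.32.

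Macrophage and monocyte markers were higher in the same tumours as these genes. The mean log2 signal of 13 macrophage and monocyte markers was 7.80, 7.40 and 7.56 in RG7112 tumours 1, 2 and 3, against 6.50 and 6.19 in vehicle tumours 3 and 4. Of these markers 8 rose, 0 fell and 5 did not pass, beside 1.42% of all probe sets called higher and 0.0315% lower. The first by p were Aif1 (2.57 ± 0.20, limma adjusted p = 0.000303) and Adgre1 (1.58 ± 0.18, adjusted p = 0.00127). Without vehicle replicate 4, 1 marker of the list, Aif1, was called (2.49, adjusted p = 0.0219), while the median difference of the list was 1.11, against 1.32 with all tumours. The tumours stood in the same order for this list as for Tnfsf10 and Birc3, with RG7112 replicate 1 highest and vehicle replicate 4 lowest, and the lists of T cell and NK cell markers had that order too. Tnf did not have this order, since RG7112 replicate 2 was its highest tumour. The list of endothelial markers had the order of Tnf. Its mean was 6.65, 6.77 and 6.64 in RG7112 tumours 1, 2 and 3, against 6.18 and 6.15 in vehicle tumours 3 and 4. The part of macrophages, monocytes, T cells, NK cells and endothelium in the rise of Tnf, Tnfsf10, Birc3 and the 5 effector genes was not tested.

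Other lists of cell markers had fewer called genes, beside the same 1.42% of all probe sets called higher. The mean log2 signal of 7 T cell markers was 5.22 to 5.26 in RG7112 tumours and 4.78 to 4.80 in vehicle tumours, and 0 of the 7 were called. Cd3e differed by 0.75 ± 0.21 (limma adjusted p = 0.178) and Cd8a by 0.87 ± 0.25 (adjusted p = 0.184). For 6 NK cell markers it was 4.66 to 4.83 with RG7112 and 4.09 to 4.48 with vehicle, with 0 called. Prf1 differed by 0.75 ± 0.20 (adjusted p = 0.148, but 0.0206 without RG7112 replicate 1) and Gzmb by 1.00 ± 0.33 (adjusted p = 0.293), genes that cytotoxic T cells share. The NK cell receptors Ncr1 and Klrb1c differed by 0.07 ± 0.16 and 0.08 ± 0.20. For 6 endothelial markers it was 6.64 to 6.77 with RG7112 and 6.15 to 6.18 with vehicle, with Kdr called (1.01 ± 0.19, adjusted p = 0.0203) and Cdh5 not (0.75 ± 0.18, adjusted p = 0.0811). For 7 dendritic cell markers it was 4.68 to 4.78 with RG7112 and 4.52 with vehicle; Itgax, an integrin that macrophages share, was called (0.98 ± 0.20, adjusted p = 0.0376) and Xcr1 was not (0.46 ± 0.18, adjusted p = 0.425). The median of this list was 0.10, and Zbtb46 (-0.23), Siglech (-0.08) and Ccr7 (-0.03) had negative differences that did not pass. For 6 neutrophil markers it was 4.39 to 4.45 with RG7112 and 4.24 to 4.29 with vehicle, with 0 called; Csf3r differed by 0.62 ± 0.17 (adjusted p = 0.163) and Mpo by 0.32 ± 0.18 (adjusted p = 0.692). The median of this list was 0.07, with S100a8 at -0.13, S100a9 at -0.05 and Retnlg at 0.01. The 9 melanocyte lineage markers were at 11.4 to 11.5 with RG7112 and 11.3 to 11.4 with vehicle, with 0 called; Gpr143 differed by 0.37 ± 0.16 (adjusted p = 0.521) and Mlana by 0.24 ± 0.16 (adjusted p = 0.757). Kdr was not called without RG7112 replicate 2 or 3 or either vehicle tumour (adjusted p between 0.0797 and 0.370), and with 1 tumour left out Itgax passed only without RG7112 replicate 3. The 5 fibroblast markers averaged 8.25 ± 0.34 (SD, n = 3) with RG7112 and 8.14 ± 0.07 (SD, n = 2) with vehicle, with overlapping groups.

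The named genes whose profile over the 5 tumours was nearest to that of Tnf were Rgs1, Tgfbi, Acod1, Arhgap15 and Slfn2. Likeness was the root mean square difference between log2 profiles, each centred on its own mean, and it lay between 0.06 for Rgs1 and 0.12 for Slfn2. Without vehicle replicate 4, Arhgap15 (1.60, adjusted p = 0.0381) and Slfn2 (1.33, adjusted p = 0.0431) kept their calls, and Rgs1, Tgfbi and Acod1 did not (adjusted p = 0.0573, 0.121 and 0.0570). Rgs1, a regulator of G-protein signalling in leukocytes, differed by 1.39 ± 0.16 (SE; limma adjusted p = 0.00122). Acod1, the itaconate-making enzyme of activated macrophages, differed by 1.44 ± 0.17 (adjusted p = 0.00122). Of the other 9 genes the nearest to Tnf were Birc3 (0.35) and Tnfsf10 (0.37), placed 217th and 239th among named genes. Relb (0.90) and Tnfsf13b (0.89) were the farthest. This ranking uses the same 5 tumours as the comparison and is a description only.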

How the data were processed

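Whole-tumour RNA was measured on Affymetrix Clariom S mouse arrays, 1 per tumour. The deposited values are log2 signals; the submitters' processing notes name oligo and RMA (background correction, quantile normalization and summary per probe set), with versions not given in the sources used here. Values ran from 2.53 to 13.3, with array medians of 5.76 to 5.81. The annotation named 19572 of 22203 probe sets. A gene with several probe sets was read from the brightest.

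The difference, RG7112 minus vehicle, came from limma 3.58.1 (lmFit, then eBayes) under R 4.3.3, which was tested on simulated data. Adjusted p-values are Benjamini-Hochberg over all probe sets, and intervals are 95% and unadjusted for the number of genes. The number of arrays, 3 against 2, limits the precision: an exact permutation test of 1 value could not go below p = 0.1. Scan dates were not used here.

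The members, lists and tests were chosen with earlier results of these data known. Text names the 10 members, in each pathway list up to 4 other called genes by p (or, with fewer than 2 called, the 2 smallest p-values), the 5 nearest to Tnf, and 2 markers, by p, of each list whose mean level did not overlap between the groups. Motifs were chosen after the values were seen. Alternatives were eBayes with a trend or robust, array weights, quantile or cyclic loess normalization, a filter or floor on dim signals, 1 probe set per gene, the mean of a gene's probe sets, adjusted p under 0.10, and leaving out each tumour.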

Additional observations from a re-analysis of the deposited data

How the results depend on the processing

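Most calls were lost in at least 1 of the fits that left out a tumour. Each such fit also has 1 array fewer, so lost calls cannot be laid to the values of that tumour alone. With each tumour left out in turn, 65 to 268 probe sets were called higher and 0 to 5 lower, against 315 and 7 with all tumours; without vehicle replicate 4, 65 and 0 were called in limma, with 1566 at an unadjusted p under 0.05, and without vehicle replicate 3, 151 and 1. Of the 10 genes 0 to 3 were called, 0 of them without vehicle replicate 4, where the lone vehicle tumour is assumed to vary like the RG7112 tumours. The fit without vehicle replicate 3 also leaves 1 vehicle tumour and rests on the same assumption. The median difference ran from 0.99 to 1.52 for the ligands and from 0.39 to 0.82 for the feedback genes. For the subunits it ran from -0.29 (without RG7112 replicate 3) to -0.017 (without vehicle replicate 3). Medians of the pathway lists ran from 0.040 to 0.16 for ligands, 0.037 to 0.14 for receptors, 0.015 to 0.23 for receptor-proximal genes, 0.0044 to 0.15 for subunits and kinases, 0.079 to 0.14 for inhibitors and 0.078 to 0.24 for effectors. Of the effectors, 3 were called without any 1 tumour other than vehicle replicate 4, 4 with an intensity trend (Nos2 was not) and 0 with dim signals floored. A floor on signals at each array's 20th percentile left the differences of the 10 genes as they were, but 0 of them were called (Tnf adjusted p = 0.0780), with 8 probe sets higher and 0 lower (2148 at an unadjusted p under 0.05) and a median of -0.0091 for the TNF family ligand list. The floor put 3125 probe sets at the floor on every array, and the prior degrees of freedom of the shared variance dropped to 1.60, against 7.92 without it. Probe sets called lower numbered 16 with array weights, 4 with cyclic loess normalization and 2 without dim probe sets. The direction of Nfkb2 turned between fits without vehicle replicate 3 (0.27) and without vehicle replicate 4 (-0.40). The other alternatives kept Tnf, Tnfsf10 and Birc3 called and the other 7 genes not called. Each of the 10 genes had 1 probe set, so the mean of all probe sets changed nothing. No paired analysis was made because the labels give no pairing of the mice. Dim signals, such as those of Tnf, Tnfsf10 and Tnfsf13b, limit how well their differences are measured.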
